A study of Mus musculus with 7 samples.

Results

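Antisense genes are annotated RNAs, mostly without a reading frame, that are transcribed from the opposite strand of another gene. Some act on the gene they face, through the act of transcription, through chromatin or by pairing with its RNA, while many have no known role, and many are kept at low levels by nuclear RNA decay. A pair that shares a start region can also be transcribed outward from 1 open stretch of chromatin. In the epidermis, the stratified layer of keratinocytes that makes the skin barrier, few of these RNAs have an assigned function.

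The antisense genes described here are all rows that the deposited table of the series labels as antisense, 110 of its 7091 genes (1.55%). RNA was sequenced from the epidermis, separated from skin in the resting phase of the hair cycle, of 4 KA mice (2 male, 2 female) and 3 controls (1 male, 2 female), with 1 library per mouse. KA mice were K14-CreERT;ABCA12-cKO, in which the K14 promoter of basal keratinocytes drives a tamoxifen-dependent Cre. Controls were ABCA12-c/c mice that carry the conditional allele without CreERT. Both groups received tamoxifen at 8 weeks of age, as 3 daily doses of 1 mg for every 40 g of weight, and skin was taken 2 weeks later, so CreERT itself is also a difference between the groups. Abca12, which encodes a lipid transporter of the keratinocyte barrier, is not analysed here. The listed genes held between 9590718 and 12761458 reads per library, which are not library depths, because every listed gene has an adjusted p of the authors under 0.05 on these same 7 libraries.

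Because of that selection, a gene that passes again is not independent evidence, and a share of genes that pass says little. In the edgeR quasi-likelihood fit of the whole table, 6758 of 6761 tested genes (100%) had an adjusted p under 0.05. The results below therefore rest on direction, size and level, and size too is shaped by the selection, most of all in weak genes. Levels are normalized reads, the count divided by the authors' size factor of that library. Libraries of the kit named in the labels are not stated to keep strand, so reads from exonic bases that an antisense gene shares with a coding gene cannot be told apart. The same holds for reads of unspliced coding RNA over antisense exons that lie in introns of the coding gene, which hold a median of 42.3% of the antisense exonic bases in the pairs below. Shared exonic bases are given for most of the pairs described.

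Markers of keratinocytes dominated all libraries. The 5 listed keratinocyte markers of 8 summed to 587587, 660801 and 718843 normalized reads in controls and 993229 to 1064031 in KA, with 3 higher and 2 lower. Of the other cell types, 5 of 7 Langerhans and myeloid markers were listed, 4 higher and 1 (Adgre1) lower, with sums of 11842 to 16097 in controls and 24045 to 36240 in KA. Most of these sums came from 1 gene, Cd74, at 10438 to 14355 in controls and 21604 to 33255 in KA. The 3 listed T cell markers of 6 were all lower, with sums of 1125 to 1435 in controls and 556 to 679 in KA. Melanocyte markers had 1 of 5 listed (Dct, lower, 102 to 205 against 52.9 to 117) and endothelium 1 of 4 (Pecam1, higher, 11.4 to 17.6 against 34.5 to 55.4), while no marker of dermal fibroblasts (6), muscle (4) or adipocytes (3) was in the table. In bulk epidermis, fewer cells of a type and less RNA per cell cannot be told apart, and the part of these shifts in the antisense levels was not tested.

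Most of the listed antisense genes were lower in the KA epidermis. By the fold change of the authors' deposited table, 86 of the 110 genes (78.2%) were lower in KA and 24 (21.8%) higher, whereas 47.4% of all listed genes were lower and 52.6% higher. The share lower was 46.0% among 6450 coding genes, 60.1% among 193 lincRNA genes and 68.5% among 73 processed transcripts. Antisense genes are weakly expressed, with a median of 23.0 normalized reads per gene against 460 for all listed genes. At a mean under 100 reads, 75 of 96 antisense genes (78.1%) were lower, 33 of 46 processed transcripts (71.7%), 85 of 152 lincRNA genes (55.9%) and 651 of 1244 coding genes (52.3%). The part of expression level in these shares was not tested. Summed over the 110 genes, controls held 8897, 8550 and 8856 normalized reads and the KA libraries 5001, 5549, 6666 and 5547. Without Gm16136, the most abundant member, the sums were 6625 to 7055 and 3621 to 4826. These sums run over genes that the table selected on the same libraries, most of them lower, so that they lie apart follows largely from the selection, and antisense genes outside the table are not analysed here. As a share of reads in listed genes, antisense reads made up 0.0865% to 0.0931% in controls and 0.0415% to 0.0596% in KA.

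**Figure D1:**
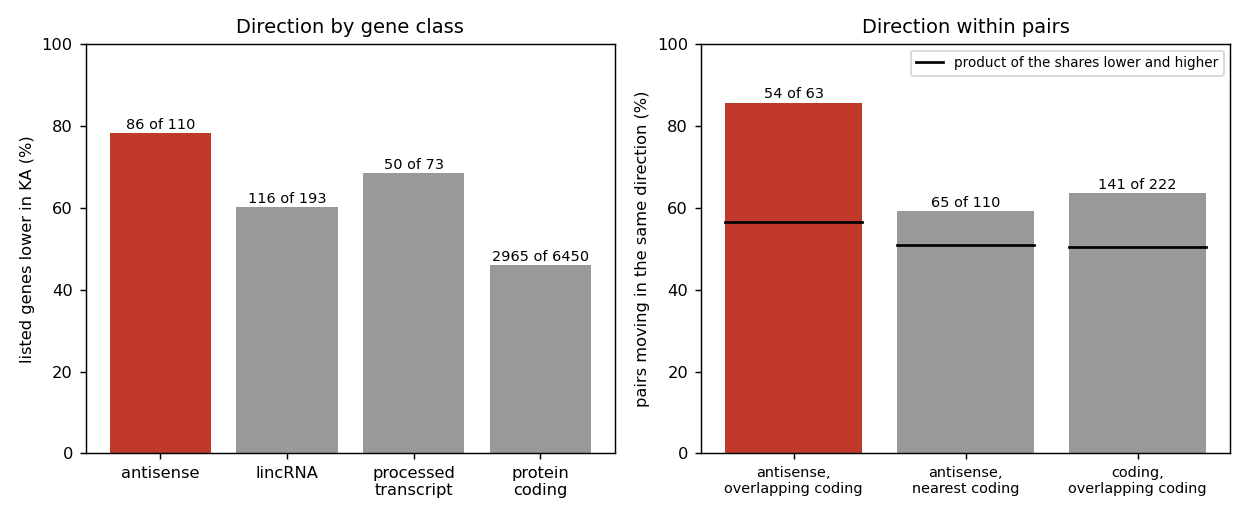
Left, percent of listed genes lower in KA by class, with the counts above the bars: 86 of 110 antisense genes lie at 78.2%, above the 3 other classes. Right, percent of pairs whose members move in the same direction, for antisense genes with the coding genes they overlap (54 of 63), antisense genes with the nearest listed coding gene they do not overlap (65 of 110) and overlapping coding pairs (141 of 222). The black lines give the percent that the shares lower and higher of the members alone would give.

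Of the 110 genes, 84 passed the filter on low counts, and all 84 passed the test again, 14 higher and 70 lower in KA, where 52.5% of all tested genes passed as higher and 47.5% as lower. With p-values adjusted over the 19407 genes of the authors' own adjustment, 72 of the 84 passed (12 higher, 60 lower), against 87.8% of all tested genes (45.9% higher, 41.9% lower). All KA libraries lay on one side of all controls in 104 of the 110 (94.5%), against 93.3% of all listed genes. The median log2 fold change of the 84 was -1.26, against 0.36 for all tested genes, -0.81 for tested lincRNA genes and -1.0 for tested processed transcripts. With TMM scaling of the listed genes, the 84 had a median of -1.38 and all tested genes 0.22. The median shift of the log2 fold change between the scalings was 0.134, and all 84 genes kept their direction under both. The other 26 genes had means of 1.96 to 10.3 normalized reads, and 16 of them were lower.

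Several of the more abundant members fell. Gm16136, the highest, which lies opposite Grhl2, a transcription factor of epithelial barrier genes, held 1842, 1926 and 2102 normalized reads in controls and 1380, 1469, 1839 and 1472 in KA. KA 3 came within 3 reads of control 1, and the log2 change of -0.35 (SE 0.13) had an edgeR adjusted p of 0.0228, or 0.0654 over the authors' number of genes. Rab10os, opposite the vesicle-transport GTPase gene Rab10, fell from 525, 556 and 550 to 318, 416, 444 and 359. Sp3os, opposite the transcription factor gene Sp3, fell from 159, 208 and 244 to 75.2, 116, 100 and 90.3. Hopxos, opposite Hopx, a homeodomain gene of differentiating keratinocytes, fell from 79.5, 69.1 and 85.8 to 45.5, 53.0, 56.4 and 35.3, with an adjusted p of 0.0191, or 0.0548 over the authors' number of genes. An abundant member in the other direction was Gm17201, opposite Ankrd52, at 194, 265 and 312 against 428, 371, 442 and 310, where the lowest KA value lay below the highest control. These 5 belong to the 46 antisense genes that lie opposite an annotated coding gene not analysed here, of which 38 (82.6%) were lower by the authors' fold change. Of the 58 opposite at least 1 listed coding gene, 44 (75.9%) were lower, and of the 6 opposite no annotated coding gene, 4.

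Among the 8 largest rises, Gm15845 was silent in controls and present in every KA library. It lies head to head with BC100530, a stefin A gene for a cysteine protease inhibitor, at chr16:36367070-36387406 (GRCm38, plus strand). Gm15845 had no read in any control and 34.6, 15.8, 14.6 and 21.8 normalized reads in KA, at least 7.81-fold higher against a floor of 3 counts per library. BC100530 itself went from 12.3, 4.12 and 28.1 to 52778, 29975, 29311 and 39792 reads, and stefin A copies are near-identical, so its count is uncertain. Per kb of exon, Gm15845 in KA amounted to 0.0453% of BC100530, with 145 of its 996 exonic bases shared.

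Tnfsf13os and Kcnmb4os2 rose with the coding genes they face. Tnfsf13os, antisense to the gene of the B-cell ligand APRIL, held 4.73, 3.09 and 4.81 reads in controls and 39.6, 57.5, 53.3 and 39.5 in KA, a log2 rise of 3.44 (SE 0.39, edgeR adjusted p = 5.32e-05). Its coding partner Tnfsf13 rose from 6.63, 8.25 and 8.82 to 47.5, 49.6, 60.6 and 45.7, while Tnfsfm13, a readthrough gene that shares exons with Tnfsf13 and cannot be separated from it, held 0.947 to 4.01 and 5.19 to 21.4. Both groups were apart for each of these genes, and Tnfsf13os shares 221 of its 1109 exonic bases with Tnfsf13. Kcnmb4os2 rose from 5.68, 4.12 and 4.01 to 17.8, 37.2, 63.7 and 18.7, with KA 2 and KA 3 above the other pair. Kcnmb4, an accessory subunit of a calcium-activated potassium channel, rose less, from 20.8, 13.4 and 8.82 to 30.7, 37.2, 39.7 and 34.3. The other large rises were Gm13010 (0, 2.06 and 1.6 against 24.8 to 70.6), Gm13583 (0, 4.12 and 2.41 against 15.7 to 19.2), Gm44613, Gm26714 (3.21 to 7.57 against 16.6 to 28.2) and Gm13398 (19.9 to 27.8 against 38.4 to 115).

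**Figure D2:**
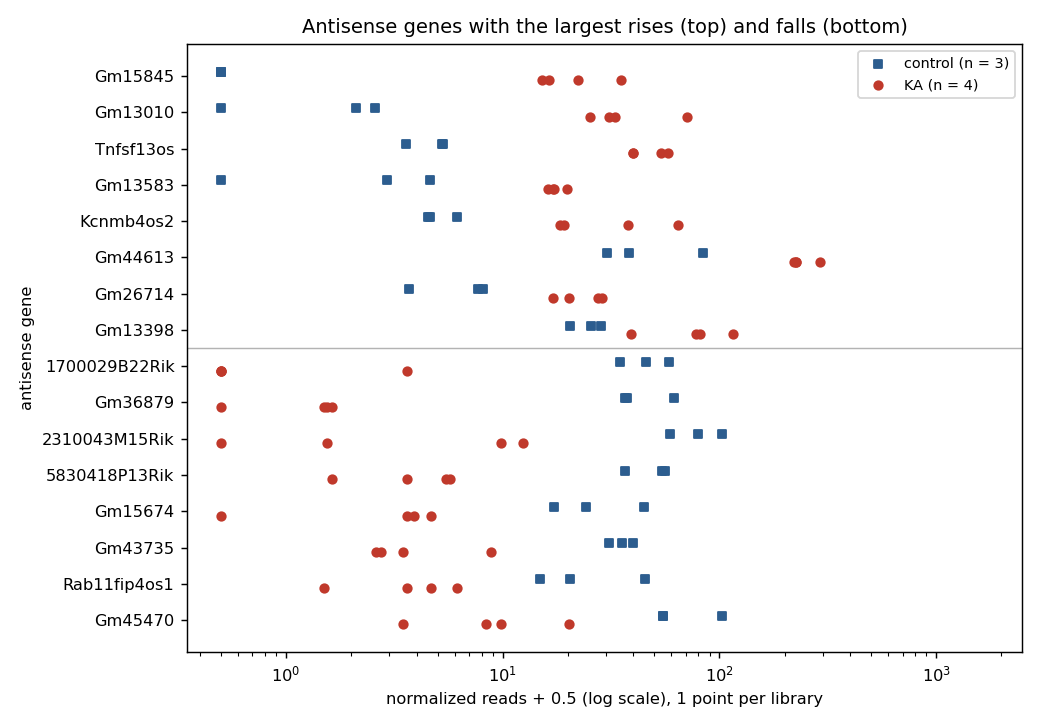
Normalized reads plus 0.5 on a log axis, 1 point per library, for the 8 antisense genes with the largest rises (top) and the 8 with the largest falls (bottom) among tested genes with a mean of at least 10 reads. Squares are the 3 controls and circles the 4 KA libraries, which do not overlap because the rule required it: Gm15845 is at 0 in all controls, and 1700029B22Rik is at 0 in 3 KA libraries.

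The largest falls took RNAs close to the limit of detection. 1700029B22Rik, which lies in an intron of Fgfr2, a growth factor receptor gene of the epidermis, held 34.1, 45.4 and 57.7 reads in controls, none in KA 1, 2 and 3, and 3.11 in KA 4. With 3 counts in all KA libraries, the ratio was 59.1-fold lower (95% exact interval for counting error only, 19.8 to 290). Fgfr2 fell by 1.16 on the log2 scale, from 5791, 5806 and 7228 to 2022, 2368, 3077 and 3798, and shares no exonic base with 1700029B22Rik. The annotated starts of these genes lie 1976911 bases apart, so the pair is not a local one at the Fgfr2 start. Gm36879, which spans the beta-defensin gene Defb15, went from 61.5, 37.1 and 36.1 to 0.989, 1.13, 1.04 and 0, again 3 counts in KA and 56.8-fold lower (19.1 to 279). AC087556.1, inside Pcyt1a, an enzyme gene of phosphatidylcholine synthesis, had a mean just under 10 reads: 18, 19.6 and 30.5 in controls and 0.989, 0, 0 and 0 in KA, where the 1 read left gave a ratio 88.7-fold lower (15.4 to 3548). The other large falls were 2310043M15Rik (58.8 to 102 against 0 to 11.9), 5830418P13Rik (36.0 to 55.3 against 1.13 to 5.22), Gm15674 (16.8 to 44.5 against 0 to 4.15), Gm43735 (30.5 to 39.2 against 2.09 to 8.31), Rab11fip4os1 (14.4 to 44.9 against 0.989 to 5.63) and Gm45470 (54.5 to 102 against 2.97 to 19.8).

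Antisense genes and the coding genes they overlap mostly moved together. The 58 antisense genes with a listed partner made 63 pairs with 63 coding genes, and 54 pairs (85.7%) moved in the same direction by the authors' fold changes: 39 with both members lower and 15 with both higher. In the other 9 pairs, 8 had a lower antisense gene and a higher coding gene and 1 the reverse. The shares lower of the members alone would give 56.6% of pairs in the same direction. For the nearest listed coding gene without overlap, a median of 31918 bases away, 65 of 110 antisense genes (59.1%) moved with it, and 35 of the 58 that have an overlapping partner (60.3%). Overlapping coding pairs on opposite strands moved together in 141 of 222 (63.5%). These shares are descriptions of a selected table and were not tested against each other.

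Pairs with and without shared exonic bases both mostly moved together. Pairs without a shared exonic base moved together in 11 of 12, pairs with at least 1 in 43 of 51, and antisense genes wholly in introns of the coding gene in 8 of 8, where the shares lower of the members alone would give 58.3%, 56.2% and 78.1%. Those 8 are among the 12, and reads of unspliced coding RNA over their antisense exons cannot be told apart. By layout, 20 of 23 antisense genes inside a coding gene moved with it (87.0%, where the shares lower alone would give 68.4%), as did all 6 that enclose a coding gene (beside 50%). Pairs that overlap at their ends (tail to tail) moved together in 13 of 14 (92.9%, beside 62.2%) and pairs that overlap at their starts (head to head) in 15 of 20 (75.0%, beside 48.0%). Over the 63 pairs, the median was 1917 for the antisense exonic bases and, taken separately, 179 for those shared with the partner's exons. The median share was 13.1%. Per kb of exon, the antisense member stood at a median of 9.26% of its partner in controls and 3.06% in KA, and was below the partner in 54 of 63 pairs in controls. In 44 of the 54 same-direction pairs the antisense member had the larger fold change by the authors' values, and in 24 of the 33 with both members tested. Of all listed antisense genes 82.7% had changed by a log2 value of 1 or more, up or down, and of all listed coding genes 40.7%. The same share was 79.3% for lincRNA genes and 69.9% for processed transcripts. A weakly expressed gene passes the authors' threshold only with a large change. The median listed antisense gene had 23.0 normalized reads and the median coding gene 548. These counts of larger fold changes therefore follow largely from the selection.

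**Figure D3:**
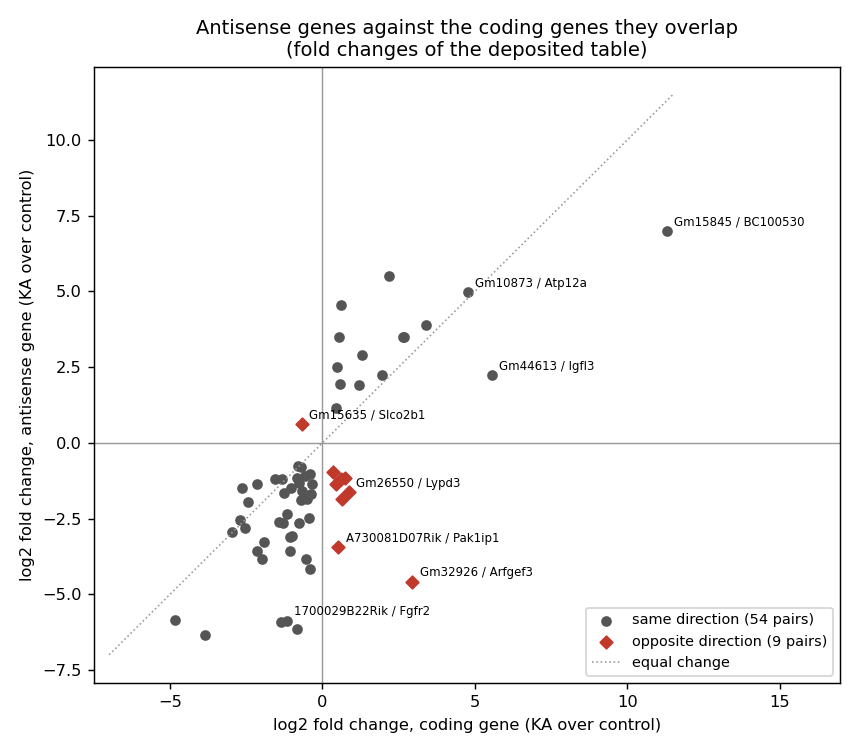
Log2 fold change (KA over control, from the authors' deposited table) of each antisense gene against that of the coding gene it overlaps, 1 point per pair. Grey circles are the 54 pairs that move in the same direction, which fill the lower left (39) and upper right (15), and red diamonds the 9 opposite pairs, 8 of them at the lower right.

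Among ligand genes, Bmp4, a growth factor of hair follicle and skin, and its intronic antisense gene fell by nearly the same factor. Gm15222 lies as a single exon of 1764 bases inside a Bmp4 intron, with no exonic base shared. Reads of unspliced Bmp4 RNA over that exon cannot be told apart from Gm15222 reads. Gm15222 held 53.0, 60.8 and 67.4 reads in controls and 6.92, 9.01, 14.6 and 10.4 in KA, a log2 change of -2.55 (SE 0.33, edgeR adjusted p = 0.000106). Bmp4 went from 807, 656 and 773 to 86.1, 94.6, 130 and 143, a log2 change of -2.72 (SE 0.19). Gm15222 counts per 1000 Bmp4 counts were 65.7, 92.8 and 87.1 in controls and 80.5, 95.2, 113 and 72.5 in KA, and these ranges overlap (log2 change 0.20, SE 0.26, limma adjusted p = 0.522).

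Pdgfa, the gene of a platelet-derived growth factor chain, fell with 6330403L08Rik, which overlaps it head to head with 813 of 5522 exonic bases shared. The antisense gene went from 165, 185 and 144 to 83.1, 82.2, 103 and 109, and Pdgfa from 1156, 1221 and 1118 to 701, 759, 749 and 662. Their ratio overlapped between groups (log2 change -0.10, SE 0.23). Wnt7b, a Wnt ligand, fell by 0.38 on the log2 scale, and its head-to-head partner AU022754 (324 of 3064 exonic bases shared) by 1.68, from 28.4, 21.6 and 28.9 to 4.95, 12.4, 8.36 and 7.27. Here the ratio fell too (log2 change -1.29, SE 0.41, limma adjusted p = 0.0277). Il34, a ligand on which Langerhans cells depend, fell from 4098, 3299 and 4906 to 1135, 1224, 1758 and 1450, and Gm15894, nearly all of it in Il34 introns, from 33.1, 24.7 and 32.1 to 10.9, 15.8, 10.4 and 15.6. The Langerhans marker Cd207 went the other way, from 570, 742 and 785 to 1481, 1524, 1305 and 1165. Igfl3, an insulin-like growth factor family gene, rose from 3.79, 8.25 and 13.6 to 579, 379, 487 and 188, and the enclosing Gm44613 from 37.9, 29.9 and 83.4 to 225, 224, 220 and 289. No exonic base is shared between those 2 genes, and Gm44613 rose less (ratio log2 change -3.17, SE 0.49). At its other end Gm44613 overlaps Ceacam12, of the carcinoembryonic antigen family, which rose from 36.9, 24.7 and 70.6 to 147, 162, 174 and 206, and control 3 was the highest control for both genes. Gm44613 shares 186 of its 1109 exonic bases with Ceacam12, and Ceacam genes are similar in sequence, so that count is uncertain.

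Among receptor genes, Adrb3, a beta-adrenergic receptor, fell from 315, 274 and 356 to 22.8, 51.8, 71.0 and 73.7, and Gm45470 inside it (839 of 7624 exonic bases shared) from 102, 54.6 and 54.5 to 2.97, 7.89, 19.8 and 9.34. Lsr, a lipoprotein receptor that also sits at tricellular junctions, fell from 2065, 1580 and 1817 to 1026, 946, 1117 and 1138. Its tail-to-tail partner Gm4673 (946 of 4452 exonic bases shared) fell too, from 431, 314 and 291 to 152, 220, 182 and 259 (ratio log2 change 0.01, SE 0.24). Il1r2, a decoy receptor for interleukin-1, fell by 1.05 on the log2 scale, and Gm16894, wholly in its introns, by 2.99, from 14.2, 10.3 and 9.62 reads to 0, 3.38, 1.04 and 1.04. Cd7, a surface protein of T cells, fell from 439, 356 and 494 to 115, 117, 190 and 213, with Gm11775, which encloses it, at 9.47, 21.6 and 25.7 against 2.97, 1.13, 7.31 and 1.04. The T cell markers above moved the same way as this pair, and their part in it was not tested.

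Among structural genes, enzymes and regulators, Krt80, a type of keratin gene that is similar to its relatives, fell from 23442, 15555 and 18234 to 2869, 3582, 6045 and 4764. Gm35853, which encloses Krt80 and shares 263 of its 3542 exonic bases with it, fell from 258, 204 and 218 to 37.6, 67.6, 135 and 113. In both, KA 1 was lowest and KA 3 highest of the KA libraries. Trim7, a ubiquitin ligase, fell from 2304, 2430 and 2372 to 795, 1024, 1536 and 1305, and Gm16170 (491 of 3754 exonic bases shared) from 206, 152 and 108 to 23.7, 39.4, 75.2 and 83.1. Rab11fip4, an effector of recycling endosomes, fell from 3388, 2877 and 3914 to 246, 355, 545 and 597, a log2 change of -2.96, beside -2.92 for the wholly intronic Rab11fip4os1. Reads of unspliced Rab11fip4 RNA over that antisense gene cannot be told apart. Dopey2 fell by only 0.54 on the log2 scale, from 994 to 1300 reads to 692 to 828, while 2310043M15Rik inside it (443 of 1580 exonic bases shared) fell by 3.79 (ratio log2 change -4.07, SE 1.02, limma adjusted p = 0.00946).

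In the other direction, Irx3, an Iroquois homeobox factor, rose from 2098, 2096 and 2404 to 3259, 2856, 2564 and 3415, and Irx3os, which overlaps its start with 124 shared of 3725 exonic bases, from 37.9, 45.4 and 52.9 to 112, 105, 111 and 72.7. Atp12a, a proton-potassium pump, rose from 42.6, 39.2 and 44.1 to 1388, 1058, 1052 and 1109. Its partner Gm10873 was too weak to be tested, with 1 count in all controls and 8.31 to 12.9 normalized reads in KA (34.3-fold higher, counting interval 5.81 to 1387). Galnt6, an enzyme that starts O-glycosylation, rose from 127, 200 and 168 to 2197, 1540, 1596 and 1594, and the untested Galnt6os, with 2 counts in all controls, held 5.94 to 14.5 reads in KA (15-fold higher, 3.85 to 129).

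Pairs that moved apart mostly lost the antisense RNA while the coding RNA rose. Over all 63 pairs, 74.6% of antisense members and 63.5% of coding members were lower. The part of these shares in the pattern was not tested. Both members passed the test in 40 of the 63 pairs, 33 in the same direction and 7 in opposite directions. With p-values adjusted over the authors' number of genes, both passed in 31 and 5, and with scaling factors from the listed genes the opposite pairs numbered 5 (TMM) or 4 (RLE). The ratio of antisense to coding counts within a library, which library scaling does not touch, differed between groups in 30 of the 63 pairs by limma at an adjusted p under 0.05, 23 lower and 7 higher in KA. That share of 47.6% lies below the 54.5% of all 334 overlapping opposite-strand pairs with a coding member. It included all 9 opposite pairs and 21 of the 54 same-direction pairs. A changed ratio follows from how opposite pairs are defined, so the ratio values given for them below describe the size of the gap and are no further evidence for it.

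Lypd3, a surface protein of suprabasal keratinocytes, and Gm26550 made the most abundant opposite pair, and their start regions are printed here because the starts face each other across a shared stretch. Lypd3 starts inside Gm26550, at chr7:24636550-24641118 on the plus strand, and Gm26550 starts inside Lypd3, at chr7:24631145-24637916 on the minus strand, so 1367 bases of their spans overlap, with 225 of the 1184 exonic bases of Gm26550 in Lypd3 exons. The sequences end just before the RefSeq start (GRCm38.p6), for Lypd3 21 bases before it so as to stop at the start deposited in the table, and capitals mark bases inside an exon of the gene on the other strand. The RefSeq start of Gm26550 lies 477 bases upstream of the deposited one, inside Lypd3, and its 171 capitals are a Lypd3 exon.
Lypd3, chr7:24636320-24636549, plus strand: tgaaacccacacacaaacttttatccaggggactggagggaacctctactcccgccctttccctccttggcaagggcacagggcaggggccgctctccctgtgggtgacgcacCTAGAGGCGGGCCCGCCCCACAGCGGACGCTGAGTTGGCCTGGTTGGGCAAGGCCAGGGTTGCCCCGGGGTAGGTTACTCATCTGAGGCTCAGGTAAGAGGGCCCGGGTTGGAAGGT
Gm26550, chr7:24638394-24638643, minus strand: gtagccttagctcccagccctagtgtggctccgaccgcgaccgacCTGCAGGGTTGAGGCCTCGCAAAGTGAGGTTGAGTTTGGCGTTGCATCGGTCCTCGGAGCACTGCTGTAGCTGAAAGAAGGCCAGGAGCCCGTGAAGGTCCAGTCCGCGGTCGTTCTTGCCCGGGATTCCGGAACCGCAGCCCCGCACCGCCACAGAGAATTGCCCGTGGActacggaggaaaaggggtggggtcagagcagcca
Gm26550 fell from 161, 130 and 147 reads to 37.6, 40.6, 57.4 and 51.9, while Lypd3 rose from 8071, 7276 and 9563 to 16291, 14724, 15910 and 13920. Neither gene's groups overlapped. The log2 changes were -1.64 (SE 0.23) and 0.87 (SE 0.14), and the ratio changed by -2.52 (SE 0.36, limma adjusted p = 0.000864), from 19.9, 17.9 and 15.3 Gm26550 counts per 1000 Lypd3 counts to 2.31, 2.75, 3.61 and 3.73.

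Gm17690 moved with 1 partner and against the other. It lies at chr3:96167464-96172416 on the minus strand between Sf3b4, a spliceosome subunit that starts 84 bases inside it, and Mtmr11, a myotubularin-family gene that ends inside it. Gm17690 fell from 90.9, 64.9 and 61.8 to 27.7, 43.9, 27.2 and 32.2, and Mtmr11 fell from 851, 601 and 512 to 237, 327, 386 and 509 (edgeR adjusted p = 0.00936, but 0.0502 without control 1). Sf3b4 rose from 1143, 930 and 986 to 1989, 1638, 1362 and 1811. The ratio to Sf3b4 fell (log2 change -1.87, SE 0.31, limma adjusted p = 0.00145), and the ratio to Mtmr11 overlapped between groups (-0.28, SE 0.31, limma adjusted p = 0.464). Gm17690 shares 1428 of its 3469 exonic bases with Mtmr11 and 85 with Sf3b4. Gm9917 has the same layout: it fell from 31.2, 27.8 and 34.5 to 11.9, 9.01, 17.8 and 10.4, with Rassf1, a Ras-association gene that it overlaps tail to tail, at 294, 337 and 318 against 243, 250, 244 and 246, and with Hyal2, a hyaluronidase that it overlaps head to head, at 962, 825 and 875 against 1375, 1225, 1230 and 1037. Gm9917 shares 2496 of 6021 exonic bases with Rassf1 and none with Hyal2. The fall of Rassf1 had an edgeR adjusted p of 0.0292, or 0.0837 over the authors' number of genes. Unlike that of Gm17690 to Mtmr11, the ratio of Gm9917 to Rassf1 fell, with groups apart (log2 change -0.99, SE 0.29, limma adjusted p = 0.0216).

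**Figure D4:**
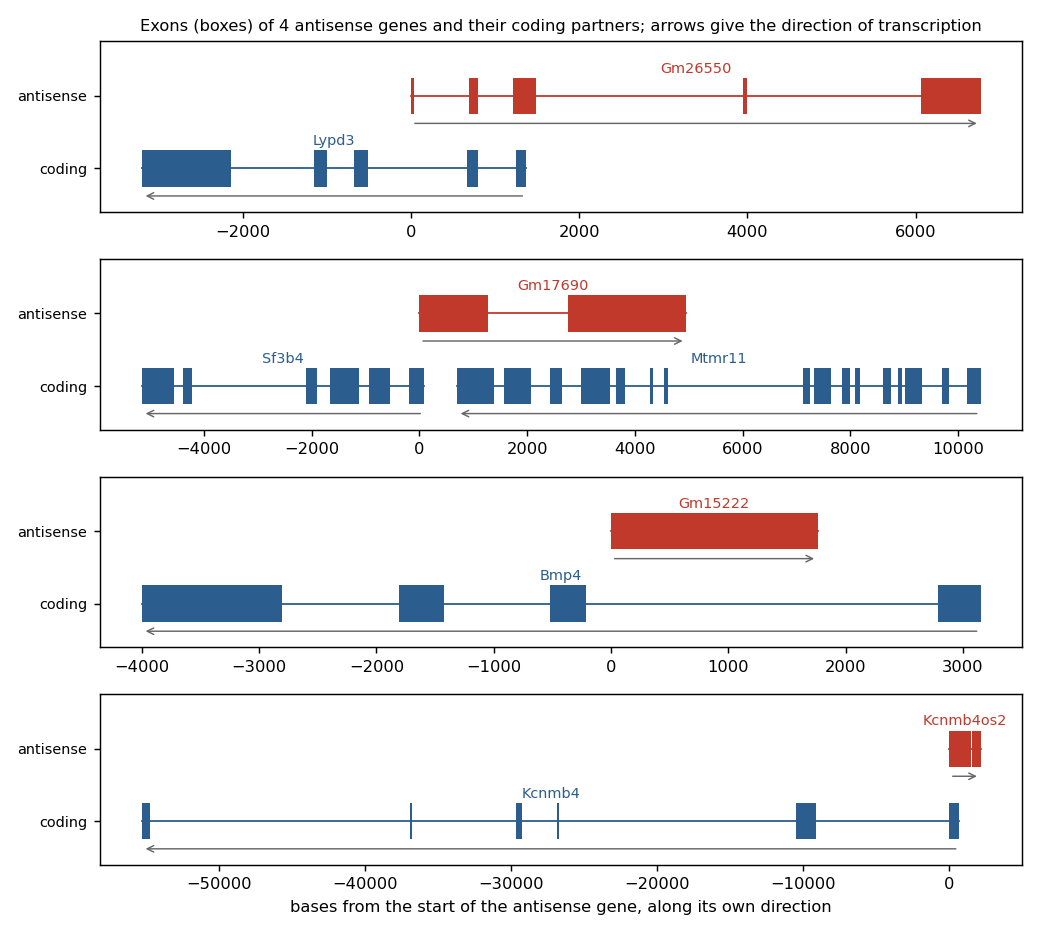
Exons (boxes) of 4 antisense genes (red) and their coding partners (blue), with the horizontal axis in bases from the start of the antisense gene along its own direction and arrows for the direction of transcription. Gm26550 and Kcnmb4os2 overlap the start of their partner, Gm17690 overlaps the start of Sf3b4 and the end of Mtmr11, and Gm15222 sits in a Bmp4 intron.

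The other opposite pairs had a single listed partner each. Gm17130, nearly all in introns of Babam2, a subunit of a deubiquitinating complex, fell from 54.9, 80.4 and 43.3 to 4.95, 14.6, 34.5 and 11.4, and Babam2 rose from 329, 403 and 395 to 655, 537, 573 and 591. Gm15122, inside the RNA-binding protein gene Dazap1, fell from 46.4, 46.4 and 30.5 to 17.8, 20.3, 17.8 and 16.6, and Dazap1 rose from 2121, 2166 and 2127 to 3494, 3263, 2916 and 3301. Their ratios fell by 2.74 (SE 0.61) and 1.73 (SE 0.34) on the log2 scale. Gm11739 fell from 49.2, 34.0 and 34.5 to 14.8, 24.8, 18.8 and 21.8, and Prpsap1, which encodes a partner of a nucleotide synthesis enzyme, held 1165 to 1261 and 1358 to 1634, a rise whose adjusted p was 0.0177, or 0.0507 over the authors' number of genes and 0.0704 without control 2. Without control 1, the adjusted p of Gm11739 itself was 0.0678 (0.0145 with it) and that of the ratio 0.0555 (limma). The reverse pair was Gm15635 (66.3, 55.7 and 47.3 against 74.2, 84.5, 97.1 and 92.4; 471 of 2870 exonic bases shared) inside Slco2b1, an organic anion transporter (611, 470 and 469 against 147, 347, 404 and 395). Over the authors' number of genes neither passed (adjusted p = 0.0714 and 0.121). Gm15635 also lost its call without control 2, control 3 or KA 4 (0.0553 to 0.0942), and Slco2b1 without any 1 control or KA 2 (0.0605 to 0.15). Their ratio rose by 1.4 (SE 0.30, limma adjusted p = 0.00436), from 101 to 118 Gm15635 counts per 1000 Slco2b1 counts to 234 to 503. The remaining 2 opposite pairs were not tested for both members: A730081D07Rik had 7.57, 9.28 and 8.82 reads against 0, 1.13, 0 and 2.08 beside a higher Pak1ip1, and Gm32926 had 16 counts in controls and none in KA, at least 1.45-fold lower, beside Arfgef3 at 0.802 to 2.06 against 5.63 to 12.9.

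**Figure D5:**
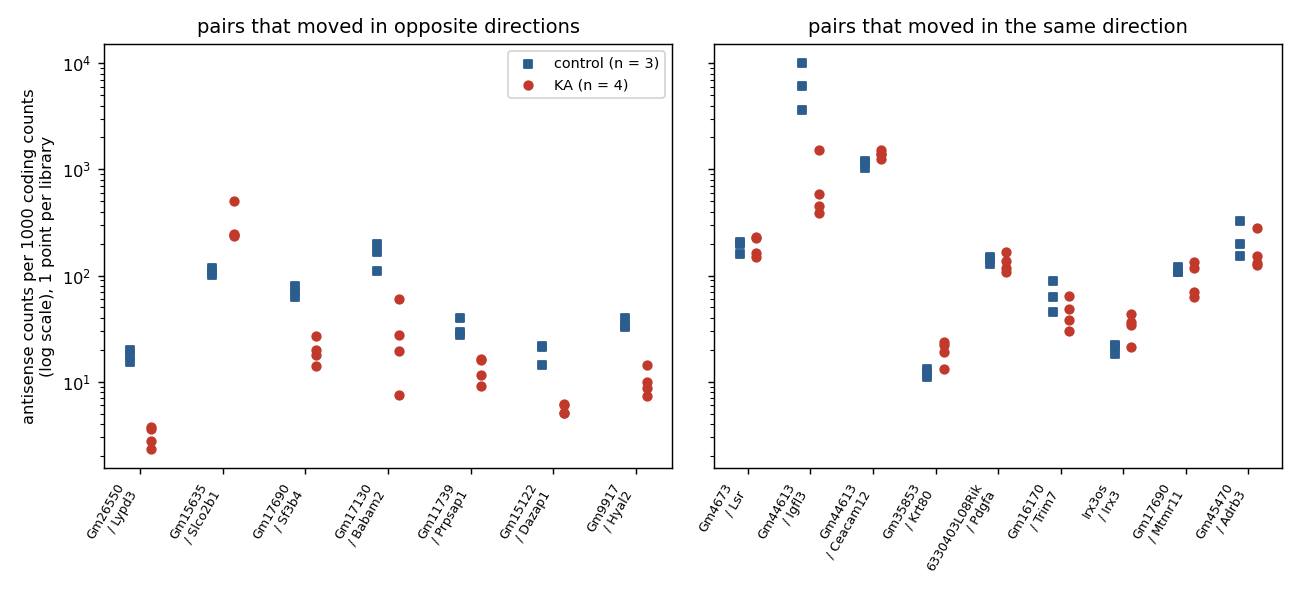
Antisense counts per 1000 counts of the coding partner on a log axis, 1 point per library, squares for the 3 controls and circles for the 4 KA libraries. Left, the 7 pairs in which both members passed in opposite directions, where the groups do not overlap and Gm15635 with Slco2b1 is the one that is higher in KA. Right, 9 of the 10 named pairs that passed in the same direction (2310043M15Rik with Dopey2 is left out because 1 KA library is at 0).

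Next to the antisense starts, without overlap, most coding genes went the other way. Within 1000 bases of an antisense start lie 7 further listed coding genes on the opposite strand, and 5 of these pairs had a lower antisense gene and a higher coding gene. With only 7 pairs, of which the shares lower alone would give 24.5% in the same direction, the count of 2 such pairs (28.6%) is near that. Cox10, an enzyme of heme A synthesis, rose from 188, 236 and 195 to 611, 403, 409 and 473 beside 2810001G20Rik, at 72.9, 94.8 and 113 against 61.3, 63.1, 60.6 and 50.9. Tmem147 rose from 915, 1276 and 1204 to 2605, 2249, 2068 and 1691 beside Tmem147os, which fell from 85.2, 72.2 and 85.0 to 40.6, 56.3, 51.2 and 46.7. The other pairs of this kind were Gm15545 with Prmt1, an arginine methyltransferase (log2 changes -0.78 and 0.75), Atad3aos with Atad3a, a mitochondrial ATPase (-1.09 and 0.72), and Gm16638 with Stard5, a sterol-binding protein (-1.48 and 0.51). The exceptions were E130307A14Rik with Rev3l, a DNA polymerase subunit, both lower (-1.26 and -0.57), and Tnfsf13os with Senp3, a SUMO protease, both higher (3.44 and 0.37).

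Start regions of 1 member each of 2 further head-to-head pairs are printed, as examples of pairs that moved together and whose RefSeq start equals the deposited one. Kcnmb4os2 starts in the first intron of Kcnmb4 and shares 693 of its 2025 exonic bases with it, and 4731419I09Rik starts 178 bases inside Efna4, an ephrin ligand gene. 4731419I09Rik fell from 18.9, 18.6 and 16.8 to 5.94, 4.51, 3.13 and 10.4, and Efna4 from 935, 774 and 800 to 369, 579, 688 and 469. The sequences below are the 250 bases before each RefSeq start, with no base in a partner's exon.
Kcnmb4os2, chr10:116472913-116473162, plus strand: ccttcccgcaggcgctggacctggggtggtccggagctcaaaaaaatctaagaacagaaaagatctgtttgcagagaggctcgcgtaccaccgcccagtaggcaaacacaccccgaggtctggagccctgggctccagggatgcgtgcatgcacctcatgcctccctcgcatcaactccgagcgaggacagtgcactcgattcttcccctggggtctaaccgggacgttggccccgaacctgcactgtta
Efna4, chr3:89338029-89338278, minus strand: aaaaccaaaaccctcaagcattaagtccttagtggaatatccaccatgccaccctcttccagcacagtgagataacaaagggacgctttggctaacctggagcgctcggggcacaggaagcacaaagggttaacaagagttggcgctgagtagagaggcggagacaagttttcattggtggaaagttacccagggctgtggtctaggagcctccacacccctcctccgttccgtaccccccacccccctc
Searched on both strands over the 250 bases before the RefSeq start, GGGCGG was found 2 times before Lypd3 and once before Kcnmb4os2 (in 32.7% of 32851 RefSeq promoters), CCAAT once before Efna4 (33.8%), and TATAAA (12.4%) and TGANTCA (6.75%) before none of the 4. The CG count was 10 for Lypd3, 19 for Gm26550, 15 for Kcnmb4os2 and 7 for Efna4, with a median of 6 over all promoters. These matches are letters in a window, not sites.

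Genes of RNA decay and of double-stranded RNA sensing or processing were also listed. Whether they act on the antisense RNAs described here was not tested. Of 21 genes of the RNA exosome and nuclear decay, 10 were in the table, 8 higher and 2 lower in KA, where 52.5% of all tested genes were higher and 47.5% lower, with a median log2 fold change of 0.51 against 0.36 for all tested genes. The subunit genes Exosc1, Exosc3, Exosc4, Exosc5, Exosc8 and Exosc9 were among the higher, and the lower ones were Zcchc8, a subunit of a complex that targets nuclear RNA to the exosome, and Xrn1, a cytoplasmic exonuclease. Exosc1 and Exosc5 did not pass over the authors' number of genes (edgeR adjusted p = 0.0526 and 0.0618), and the groups overlapped for Exosc5. Of 25 genes that sense or process double-stranded RNA, 6 were in the table and lower in KA: Ago1, Adarb1, Ifih1, Eif2ak2, Tlr3 and Oas2. Eif2ak2 did not pass over the authors' number of genes (edgeR adjusted p = 0.0655). Over all tested genes 47.5% were lower, and 1 gene of this list is not reported here, so the 6 do not describe the whole list.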

How the data were processed

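RNA of 7 mouse epidermis libraries (4 KA, 3 control) was compared from 1 deposited table of the whole series. It holds raw read counts per gene, normalized reads (a signal scale: the count divided by the authors' size factor of the library), and the authors' log2 fold change, score, and p-values before and after adjustment, per the file headers. The submitters' processing notes name fastp, STAR 2.6.1d, featureCounts 1.5.0-p3, DESeq2 1.40.2 and mm10, without roles. The annotation and the strand setting are not given in the sources used here. The members, gene lists and tests were chosen with earlier results of these data known. For the list on double-stranded RNA, 1 gene is not reported here.

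Counts were fitted with edgeR 4.0.16 (glmQLFit and glmQLFTest, robust) in R 4.3.3, over all listed genes that filterByExpr kept (6761 of 7091), with library sizes proportional to the authors' size factors, because factors computed from selected genes rest on the selection. P-values were adjusted by Benjamini-Hochberg at 0.05. Groups, numbers and sexes came from the titles. Same-numbered libraries did not deviate together (correlations -0.18, 0.111 and -0.092), so no block was used. Between libraries of a group, chi-square over degrees of freedom was 21.3 to 115, so none is a repeat of another.

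A pair is an antisense row and a listed coding row on opposite strands whose spans share at least 1 base. Its ratio, log2((antisense count + 0.5)/(coding count + 0.5)), was tested with limma 3.58.1 (trend, robust) over all 334 overlapping opposite-strand pairs with a coding member; it depends on the pseudocount where counts are near 0. Exons came from GENCODE M21 on GRCm38, in which all 110 antisense rows were found, 109 with the same span. Promoters came from RefSeq (GRCm38.p6). Means per kb use the deposited gene length. The named genes were the opposite pairs and the 10 most abundant same-direction pairs that passed, and the 8 largest rises and falls with groups apart and a mean of at least 10 reads; other named members were chosen after their values were seen. Code was tested on simulated data. Alternatives, including DESeq2 1.42.0, are in the closing section.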

Additional observations from a re-analysis of the deposited data

Results flagged for a closer look

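In 4 of the 47 named genes, 1 KA library stood far from the other 3, where chance flags about 1 in 20 groups of 4 (2.35 of 47). The gap to the nearest library over the whole range of the KA group exceeded Dixon's limit for 4 samples, and the library was KA 4 each time. For 1700029B22Rik this value was 1.0, since KA 4 held 3.11 normalized reads and the others none. For Gm36879 it was 0.878, where KA 4 had no read and the others 0.989 to 1.13, a difference of 1 count. For Gm43735 it was 0.859, with 8.31 reads in KA 4 against 2.09 to 2.97, and for Gm44613 it was 0.939, with 289 against 220 to 225. All KA values of these 4 genes lay on one side of the controls, KA 4 included. Genes described in the report outside the 47 also had a library far from the others, but not KA 4. These include Galnt6 (0.915) and Atp12a (0.83), where KA 1 was highest, and Gm15545 (0.835), where KA 3 was highest.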

How the results depend on the processing

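Sex as a covariate, a term for runs of animal numbers, DESeq2 and a mean of at least 10 counts changed the direction or call of none of the named genes. The pairs that passed in opposite directions numbered 7, but 5 with TMM, 4 with RLE factors and 12 when an antisense start within 1000 bases also counts. With no filter, and by the authors' own calls, 24 antisense genes were higher and 54 pairs passed in the same direction, because more genes are tested. Leaving out 1 library gave 6033 to 6646 listed genes, 77 to 81 antisense genes (13 to 16 higher, 63 to 67 lower), 32 to 38 pairs in the same and 5 to 7 in opposite directions, and 21 to 31 pairs with a changed ratio. The sample numbers do not pair the libraries; with a replicate block the counts were 6120 listed genes, 74 antisense genes, 32 and 5 pairs, and 25 ratios. The ratio of Gm4673 to Lsr, 0.01 on the log2 scale, changed sign with the replicate block (-0.08) and without control 3 (-0.11), KA 2 (-0.09) or KA 4 (-0.08), up to 0.12 with another library left out, and that of Gm45470 to Adrb3 (-0.31) with a pseudocount of 5 (0.16); none of these passed. Calls were lost for Prpsap1 (edgeR adjusted p = 0.107 with TMM, 0.185 with RLE), Gm15635 (0.0756 and 0.101) and Hyal2 (0.0559 with RLE), and with the block for Gm15635 (0.0895) and Gm11739 (0.0506); those lost without 1 library stand in the report. The ratio of Gm35853 to Krt80 passed with a pseudocount of 5 (limma adjusted p = 0.0374), and that of Irx3os to Irx3 without KA 4 (0.0374). The adjustment over 19407 genes, and the count of pairs with at least 200 antisense exonic bases outside coding exons (33 and 7 pairs, as with all), were added after the data were seen. Depth limits the 26 antisense genes that were not tested.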
